A study of Mus musculus with 15 samples.

Results

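Surface ectoderm cells were identified among single cells sequenced from 15 whole mouse embryos, and were chosen by the transcripts that each cell held. The rule asked for at least 1 unique molecular identifier (UMI, 1 counted transcript) of at least 2 of *Tfap2a*, *Grhl3*, *Wnt6* and *Dlx5*, at least 1 UMI of *Epcam*, and 0 UMIs of *Elf5*, *Rhox6*, *Rhox9*, *Amn* and *Hand1*. The rule found 2192 cells among 93701 retained cells. Of these, 1862 came from late control embryos, 290 from middle control embryos, 26 from early control embryos, and 1, 3 and 10 from the early, middle and late *Mesp1* KO embryos. Because the cells were selected on measured UMIs of these 10 genes, their levels are given as a description and no test of them is reported.

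The surface ectoderm is the non-neural epithelium that arises from the epiblast beside the neural plate and later forms the epidermis and, at its border, the placodes. BMP and Wnt signals favour this fate over the neural one, and the transcription factors TFAP2A, GRHL3 and DLX5 are among its early regulators, whereas the ligand gene *Wnt6* marks the epithelium itself. *Epcam* encodes an epithelial adhesion molecule, *Elf5*, *Rhox6* and *Rhox9* mark trophoblast, *Amn* marks visceral endoderm, and *Hand1* marks trophoblast and extra-embryonic or lateral mesoderm.

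On mm10 with the GENCODE vM21 annotation, *Tfap2a* lies on chr13:40715302-40738376 (minus strand), *Grhl3* on chr4:135541888-135573630 (minus), *Wnt6* on chr1:74771892-74785322 (plus) and *Dlx5* on chr6:6877805-6882085 (minus). *Dlx6*, which the rule did not use, is the neighbour of *Dlx5* at chr6:6863334-6868568 on the plus strand. *Epcam* lies on chr17:87635979-87651129 (plus).

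Embryos, whose strain label read C57/BL6, were dissociated whole, 1 embryo a library, so other cell types of the conceptus were present in every sample. All carried the Smarcd3-F6::eGFP enhancer reporter at the Hipp11 locus and, except for the early E7.5 control and late E7.5 control replicate 1, a Mesp1 Cre allele with the Rosa26R Ai14 reporter, which is switched on in cells that have expressed *Mesp1* and in their descendants. Controls kept at least 1 wild-type *Mesp1* allele and KO embryos were Mesp1 Cre/Cre, with Cre in place of both copies of *Mesp1*, a transcription factor of nascent mesoderm. Early controls were 5 embryos (3 of E6.0, a late E6.0 and an E6.5), middle controls were 3 (1 each of late E6.5, of E7.0 and of early E7.5) and late controls were 4 (2 of late E7.5 and 2 of E7.75), and each stage had 1 KO embryo (E6.5, E7.0 and late E7.5). The comparisons ask how these cells vary along gastrulation and with the loss of *Mesp1*.

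Libraries held between 13058356 and 379177866 UMIs. *Mesp1* had 0, 1 and 5 UMIs in the early, middle and late KO embryos, whereas between 1.53% and 30.8% of retained cells held a *Mesp1* UMI in the controls. The late KO embryo and E7.75 control replicate 1, which together form experiment 5, were shallow, with a median cell of 3827 and 3925.5 UMIs, against 14063 to 34415 in the other 13 libraries. A marker is less likely to be seen in a shallow cell, so shares were also computed after each cell was thinned at random to 4000 or 2000 UMIs. Of 88722 distinct barcode sequences, 4809 occurred in 2 or more libraries. Intervals and limits below cover counting error only.

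Surface ectoderm cells were rare in early controls and made up 0.605% to 5.79% of the cells of late controls. In early controls their share of retained cells was lowest at 0% (E6.0 control replicate 2 and the late E6.0 control), had a median of 0.134% and was highest at 0.784% (2 of 255 cells of E6.0 control replicate 3). Among middle controls, the late E6.5 embryo held 0.329%, the E7.0 embryo 1.70% and the early E7.5 embryo 3.21%. Late controls held 4.45% (301 of 6768 cells, late E7.5 replicate 1), 3.12% (695 of 22277, late E7.5 replicate 2), 0.605% (90 of 14884, E7.75 replicate 1) and 5.79% (776 of 13414, E7.75 replicate 2). The ranges of early and late controls overlapped only through the lowest late embryo, the shallow E7.75 replicate 1, whose 0.605% lay below the 0.784% of 1 early embryo.

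The mean was 3.49% ± 2.21 (SD, n = 4) in late controls and 0.294% ± 0.355 (SD, n = 5) in early controls, a difference of 3.196 percentage points (two-sided exact permutation test, p = 0.0317, smallest possible 0.0159). After thinning to 4000 UMIs the late controls held 0.587%, 0.913%, 0.496% and 1.79% in the same order, and only 1 early control, E6.5, held any such cell (0.0286%), so that the ranges no longer overlapped (two-sided exact permutation test, p = 0.0159). The p-value of the unthinned difference rose to 0.0571 without any 1 early control other than E6.0 replicate 3, and to 0.0714 without any 1 late control other than E7.75 replicate 1 (exact permutation test, smallest possible 0.0286 and 0.0357).

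The 5 excluded genes removed a larger part of the candidate cells in young embryos. Among *Epcam*-positive cells with 2 markers, they removed 50.0% to 100% in the early controls, 71.5% to 93.8% in the middle controls and 17.4% to 57.2% in the late controls. *Hand1* was the excluded gene found most often in every late control, for example in 380 of 402 removed cells of late E7.5 replicate 1.

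As a background, presomitic cells, which should lack this programme, were gated by at least 2 of *Tbx6*, *Msgn1* and *Dll3*. In late controls, in the order given, 4.58%, 1.12%, 0.110% and 1.91% of presomitic-gated cells met the surface ectoderm rule, at median depths of 21184.5, 17987.5, 3958 and 20959 UMIs, beside 24455, 23719, 5622 and 25013 UMIs in the surface ectoderm cells. The share over all cells stood above this background in 3 of 4 late controls, but in late E7.5 replicate 1 it was at the background (4.45% beside 4.58%). The early E7.5 control likewise held 3.79% among presomitic-gated cells beside 3.21% over all cells, and the E6.5 control, which gave 22 of the 26 early control cells, 0.489% beside 0.551% (interval 0.346 to 0.833%). The E7.0 control held 1.14% beside 1.70% (interval 1.38 to 2.08%). Its 1.14% rests on 13 of 1136 presomitic-gated cells without an interval, and whether its share stood above this background was not tested. The shares of late E7.5 replicate 1, early E7.5 and E6.5 thus could not be told apart from the presomitic background by this gate. Without late E7.5 replicate 1, the late minus early difference was 2.88 percentage points (two-sided exact permutation test, p = 0.0714). Blood-gated cells, with at least 1% of UMIs from globin genes, met the rule at 0% to 0.585% in late controls.

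Each KO embryo held a smaller unthinned share than the mean of the controls of its stage. The early KO embryo held 1 cell of 1693 (0.0591%), the middle KO embryo 3 of 1674 (0.179%) and the late KO embryo 10 of 12853 (0.0778%, 95% Clopper-Pearson interval 0.0373 to 0.143%). The middle and late KO embryos lay below every control of their stage, whereas the early KO embryo lay between its controls, 2 of which held none. All 3 middle controls belong to experiment 7 and the middle KO embryo to experiment 8, so genotype and experiment cannot be told apart at that stage, and the interval of the middle KO embryo (0.037 to 0.523%) holds the 0.329% of the late E6.5 control. Averaged over stages, the KO share was 0.105% and the control share 1.84%, a difference of -1.74 percentage points that did not pass the test (exact permutation of embryos inside each stage without regard to experiment, two-sided, p = 0.075, smallest possible 0.00833). Thinned to 4000 UMIs it was -0.37 percentage points (exact permutation test, p = 0.192), with 1 cell in the early KO embryo (0.0608%), above each early control. Without E7.75 control replicate 1 the unthinned difference was -2.06 percentage points (exact permutation test, p = 0.0417). That library is the only late control of the late KO embryo's experiment and depth. Without it, genotype, experiment and depth cannot be told apart at the late stage. Without late E7.5 control replicate 1, whose share was at the presomitic level, the unthinned difference was -1.63 percentage points (exact permutation test, p = 0.115). Without the late KO embryo it was -0.901 percentage points over the other 2 stages (exact permutation test, p = 0.375).

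Within experiment 5, where depth was alike, the late KO embryo held 0.0778% and its E7.75 control 0.605% (interval 0.487 to 0.743%). These embryos differ in age as well as genotype, late E7.5 and E7.75, so the 2 cannot be told apart here. After each cell was thinned to 4000 UMIs, they held 3 of 5923 cells (0.0507%) and 36 of 7257 cells (0.496%). Thinned to 2000 UMIs, the KO embryo held 0 of 10727 cells, which allows a share of up to 0.028%, and the control 0.114%. Among *Epcam*-positive cells without the excluded genes, surface ectoderm cells were 0.339% in the late KO embryo, 5.92% in the experiment 5 control and 12.03% to 18.78% in the other late controls. Neural-gated cells held at least 1 UMI of at least 2 of *Sox1*, *Sox3*, *Six3* and *Hesx1*. They also held *Epcam* and none of the excluded genes, and did not meet the surface ectoderm rule. Per 100 neural-gated cells, the late KO embryo held 13.2 surface ectoderm cells and the late controls 80.2 to 231. These are single embryos, and the differences within experiment 5 have no replicate check. Within experiment 8 the early KO embryo, at 0.0591%, lay between its 2 controls, E6.0 replicate 3 at 0.784% and the late E6.0 embryo at 0%, both younger by label than E6.5.

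**Figure D1:**
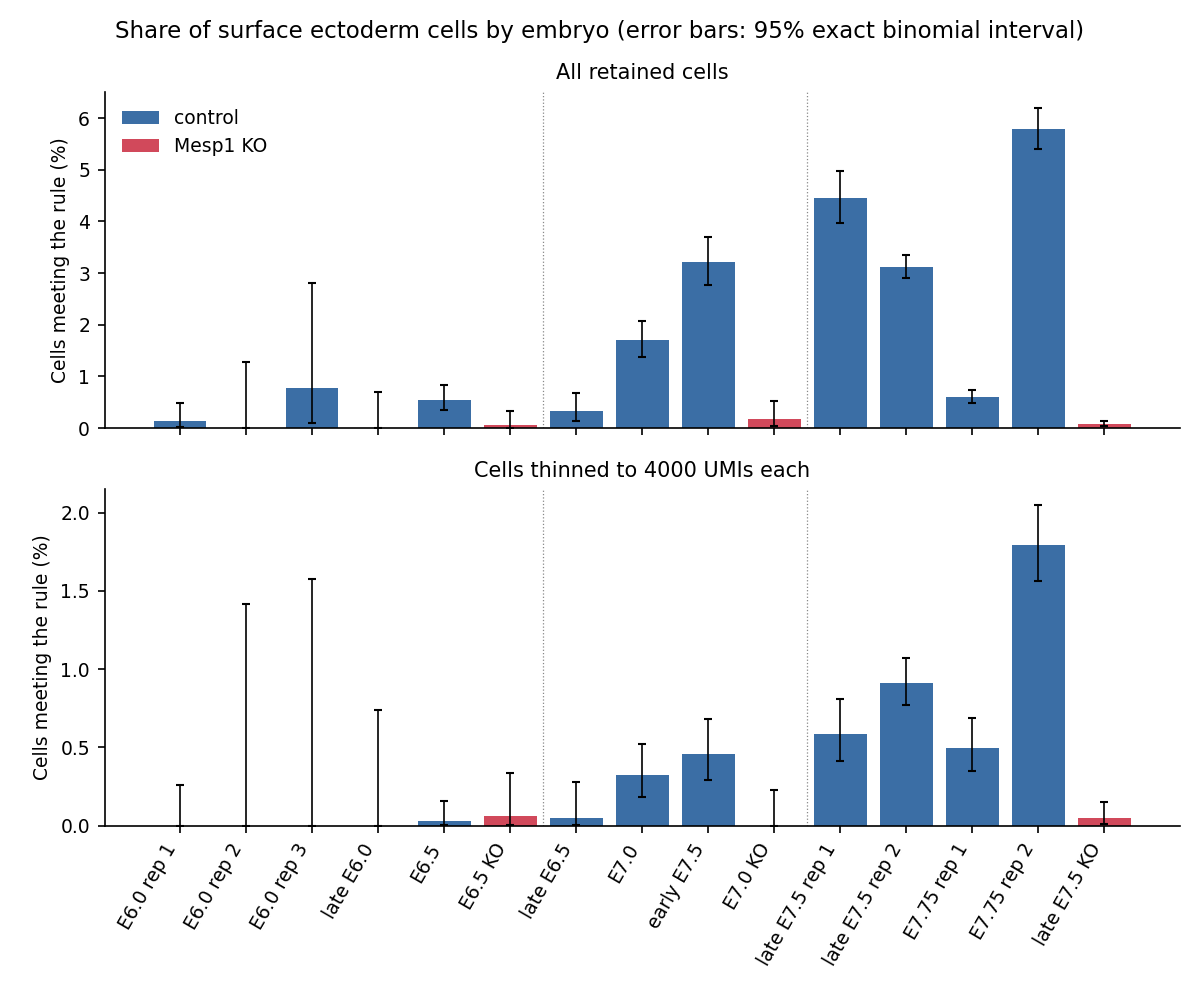
Share of retained cells that met the surface ectoderm rule (y axis, percent) in each of 15 embryos (x axis), for all retained cells (top) and after thinning each cell to 4000 UMIs (bottom); blue bars are controls, red bars *Mesp1* KO, and error bars are 95% exact binomial intervals. Late controls reached 5.79% unthinned and 1.79% thinned, the late KO embryo 0.0778% and 0.0507%.

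The 4 markers did not contribute equally. Among the 1862 surface ectoderm cells of late controls, 83.2% held a *Tfap2a* UMI, 77.9% *Dlx5*, 45.5% *Wnt6* and 31.7% *Grhl3*. The *Tfap2a* and *Dlx5* pair alone accounted for 810 cells (43.5%), 389 cells held 3 markers and 163 held all 4. Cells with 3 or 4 markers were 9.97%, 36.3%, 20% and 32.5% of the surface ectoderm cells in the 4 late controls, lowest in late E7.5 replicate 1. Doublet scores marked 5.32%, 11.2%, 13.3% and 10.4% of all surface ectoderm cells, beside 5.41%, 17.8%, 11.9% and 10.7% of all retained cells. They marked none of the 10 cells of the late KO embryo, where 10.3% of all retained cells were marked. Cells with *Grhl3* and *Wnt6* but neither of the other markers were 53 of 301 in late E7.5 replicate 1 and 15 of 695 in late E7.5 replicate 2.

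All 10 cells of the late KO embryo held the *Tfap2a* and *Dlx5* pair and no other marker. In the experiment 5 control the same pair alone was held by 27 of 90 cells, and *Grhl3* and *Wnt6* were each seen, in 40 and 44 cells. With at least 3 markers asked for, the late KO embryo held none of 12853 cells and the experiment 5 control, of like depth, 18 of 14884 (0.121%). The late controls together, most of them deeper, held 552 of 57343. Averaged over stages, the KO minus control difference in the share of such cells was -0.382 percentage points and did not pass (exact permutation test, p = 0.283). As these genes chose the cells, the composition was not tested.

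**Figure D2:**
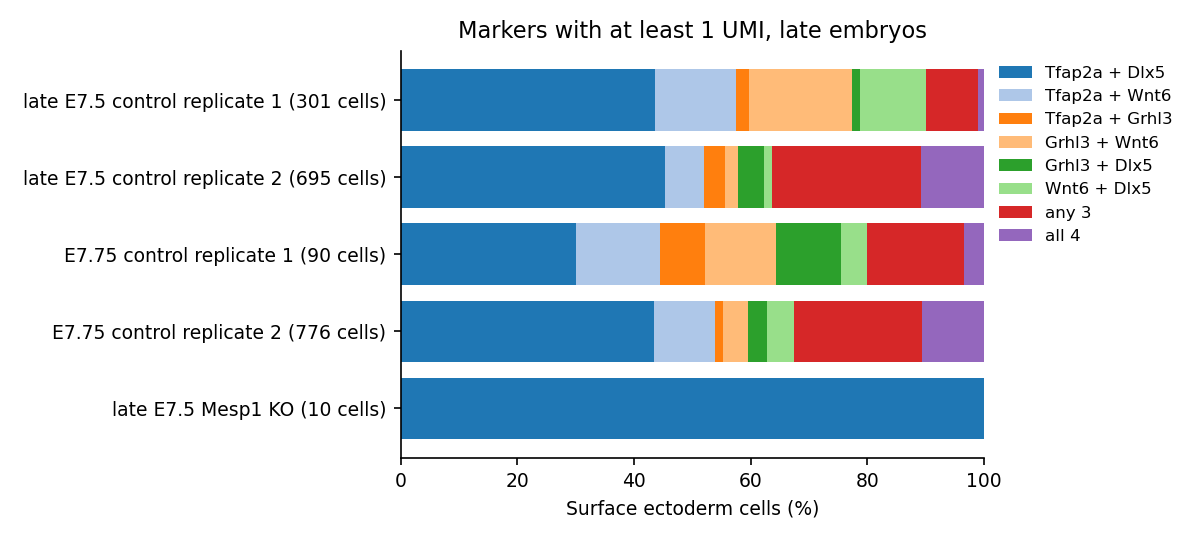
Percentage of surface ectoderm cells (x axis) that held each pair of markers alone, any 3 or all 4, in the 4 late controls and the late *Mesp1* KO embryo (rows, with cell numbers). The *Tfap2a* and *Dlx5* pair fills the whole bar of the 10 KO cells and 27 of the 90 cells of E7.75 control replicate 1.

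The label was then checked with genes outside the rule, as UMIs per 1000000 UMIs (CPM) over the summed cells of each embryo with at least 10 cells. *Pou5f1*, the pluripotency factor of the epiblast, stood at 1471 CPM in the E6.5 control, 1590 in E7.0, 1095 in early E7.5 and 1128 in late E7.5 replicate 1. It stood at 131, 39.6 and 363 CPM in late E7.5 replicate 2 and E7.75 replicates 1 and 2. The streak gene *T* split the embryos in the same way, at 155 to 440 CPM in the first 4 embryos and 14.4 to 40.1 CPM in the other 3. The other *Epcam*-positive cells, with 0 UMIs of the 4 markers and of the excluded genes, were split alike, so the split is not particular to surface ectoderm cells. In them *Pou5f1* stood at 846 to 1397 CPM in the first 4 embryos and at 165, 37.1 and 428 CPM in the other 3, and *T* at 195 to 453 CPM against 37.8 to 105 CPM.

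Several surface ectoderm or epithelial genes split them in the opposite direction. *Msx1*, a BMP-responsive homeobox gene, stood at 37.9 to 71.5 CPM in the first 4 embryos and at 264, 294 and 242 CPM in the other 3. *Krt8*, a keratin of simple epithelia, stood at 75.4 to 149 CPM against 241 to 373 CPM, and *Cldn4*, a tight-junction claudin, at 9.33 to 17.0 CPM against 31.2 to 84.6 CPM. *Trp63*, the regulator of stratified epidermis, was at 0 in the first 3 embryos and at 0.133, 2.77, 7.20 and 0.624 CPM in the late controls. The surface ectoderm list, which does not hold *Cldn4*, did not move as a whole. *Cdh1*, an epithelial cadherin gene, stood at 65.2 to 84.8 CPM in the first 4 embryos and at most 40.4 CPM in the other 3. *Msx2* and *Gata3* overlapped between them. The other *Epcam*-positive cells shared the split in *Msx1* (13.8 to 18.2 against 62.5 to 109 CPM), *Krt8* (159 to 270 against 419 to 514 CPM) and *Cldn4* (9.15 to 13.5 against 17.8 to 48.7 CPM). The cells of late E7.5 replicate 2 and both E7.75 controls, 695, 90 and 776 in number, thus combined these genes with low *Pou5f1*. Those of the first 4 embryos met the rule at *Pou5f1* levels above those of the other *Epcam*-positive cells of the same embryo. The 10 late KO cells held *Pou5f1* at 245 CPM, with *Msx1* and *Trp63* at 0 UMIs. In these cells 3 UMIs, the limit for a count of 0, correspond to 49.0 CPM. This lies above *Trp63* in every late control and above *Msx1* in late E7.5 replicate 1, so a lack of *Trp63* was not detectable. Other genes outside the rule were nevertheless higher in the surface ectoderm cells than in the other *Epcam*-positive cells of the same embryo. *Tfap2c*, a paralogue of *Tfap2a*, stood at 23.0 against 3.39 CPM in E6.5, 8.81 against 2.94 in E7.0, 40.1 against 6.11 in early E7.5 and 23.6 against 2.98 in late E7.5 replicate 1, and *Msx1* and *Msx2* were higher in each of these 4 embryos too. *Dlx6* was higher as well, but it lies beside *Dlx5*, which the rule asked for, and is not counted as support. In the late KO embryo *Tfap2c* stood at 49.0 CPM (3 UMIs) against 4.65 CPM. *Krt8* went the other way in the first 4 embryos, at 149, 80.3, 88.5 and 75.4 CPM. The other *Epcam*-positive cells there held it at 159, 196, 270 and 262 CPM. In the same order, 31.8%, 20%, 52.7% and 30.9% of surface ectoderm cells held a *Tfap2c* UMI. Among presomitic-gated cells 13.2%, 13.6%, 14.9% and 8.56% did. The surface ectoderm label thus had support from some genes outside the rule in these embryos and none from others, and *Krt8* went against it.

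Over the whole epiblast list (*Pou5f1*, *Nanog*, *Utf1*, *Dnmt3b*, *Fgf5*, *Pim2* and *Slc7a3*) the summed level was 2176 to 4411 CPM in the first 3 embryos, 2572 CPM in late E7.5 replicate 1, and 447, 182 and 1056 CPM in the other late controls. The 14 surface ectoderm genes outside the rule summed to 396 CPM in late E7.5 replicate 1 and to 1202, 1383 and 1094 CPM in the other late controls. Late E7.5 replicate 1 thus held the lowest sum of surface ectoderm genes and the highest sum of epiblast genes among late controls. *Krt8* and *Krt18* make up the larger part of the 14-gene sum in each late control, and the sum was lower than in the other *Epcam*-positive cells in all 4 (763, 1252, 1396 and 1313 CPM there), so it does not set the surface ectoderm cells apart.

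**Figure D3:**
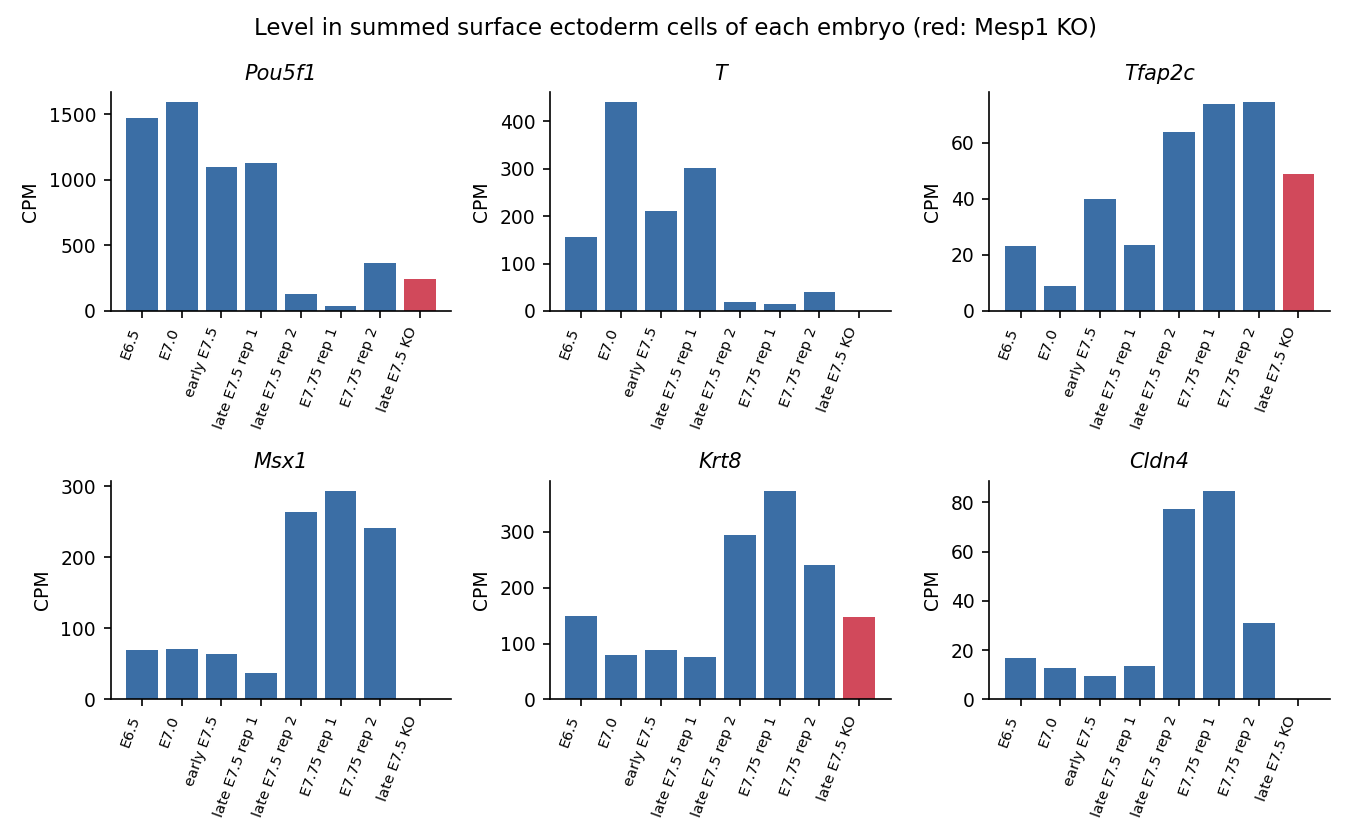
Level (y axes, CPM over the summed surface ectoderm cells) of 6 genes outside the rule in the 8 embryos with at least 10 such cells (x axes; blue controls, red *Mesp1* KO). *Pou5f1* and *T* are high in the first 4 embryos, and *Msx1*, *Krt8* and *Cldn4* in the next 3. The KO bar, from 10 cells in which 3 UMIs equal 49.0 CPM, is at 0 for *T*, *Msx1* and *Cldn4*.

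The middle and late controls were set side by side gene by gene, a comparison added after the data had been seen. The fit held 2 middle controls, as the late E6.5 control had under 10 cells. Of 12478 genes, 0 passed in either direction (0% called, 0% higher and 0% lower; quasi-likelihood test of edgeR, Benjamini-Hochberg adjusted, smallest adjusted p = 0.891), 402 had an unadjusted p under 0.05, and DESeq2 called 0. *Krt8* was 1.76 ± 0.67 higher (log2, SE) in late controls and *Msx1* 1.84 ± 0.80, neither past the threshold (adjusted p = 0.891 for both, edgeR). *Krt8* in late E7.5 replicate 1, at 75.4 CPM, lay below both middle controls, at 80.3 and 88.5 CPM.

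Cells just outside and just inside the marker threshold were compared within late controls. *Epcam*-positive cells with 1 marker held *Tfap2c* at 8.41, 20.9, 33.7 and 15.2 CPM in the 4 late controls, and cells with 2 markers at 17.5, 41.4, 73.4 and 49.6 CPM. In the 2 late controls with over 50 cells holding all 4 markers, late E7.5 replicate 2 and E7.75 replicate 2, *Tfap2c* was at 126 and 160 CPM in those cells. *T* went the other way in these embryos, from 80.1 and 120 CPM with 1 marker to 25.0 and 45.4 CPM with 2 and 9.56 and 23.9 CPM with 4. In the other 2 late controls *T* was not lower with 2 markers, at 317 CPM beside 312 CPM with 1 in late E7.5 replicate 1 and 18.4 beside 12.1 CPM in E7.75 replicate 1. With 3 markers it was at 145 CPM (27 cells) and 0 (15 cells). The 15 cells were shallow, with a median of 7110 UMIs, so a fall in *T* was not detectable in them. With 4 markers *T* was at 372 CPM in late E7.5 replicate 1 and at 0 in E7.75 replicate 1, from 3 cells each. *Krt8* was lower with 1 marker than with 0 in all 4 embryos, 83.6 against 262 CPM in late E7.5 replicate 1 and 292 against 419 CPM in late E7.5 replicate 2. Median depth was higher with more markers as well, 22559 UMIs with 2 and 27927 with 4 in late E7.5 replicate 2.

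**Figure D4:**
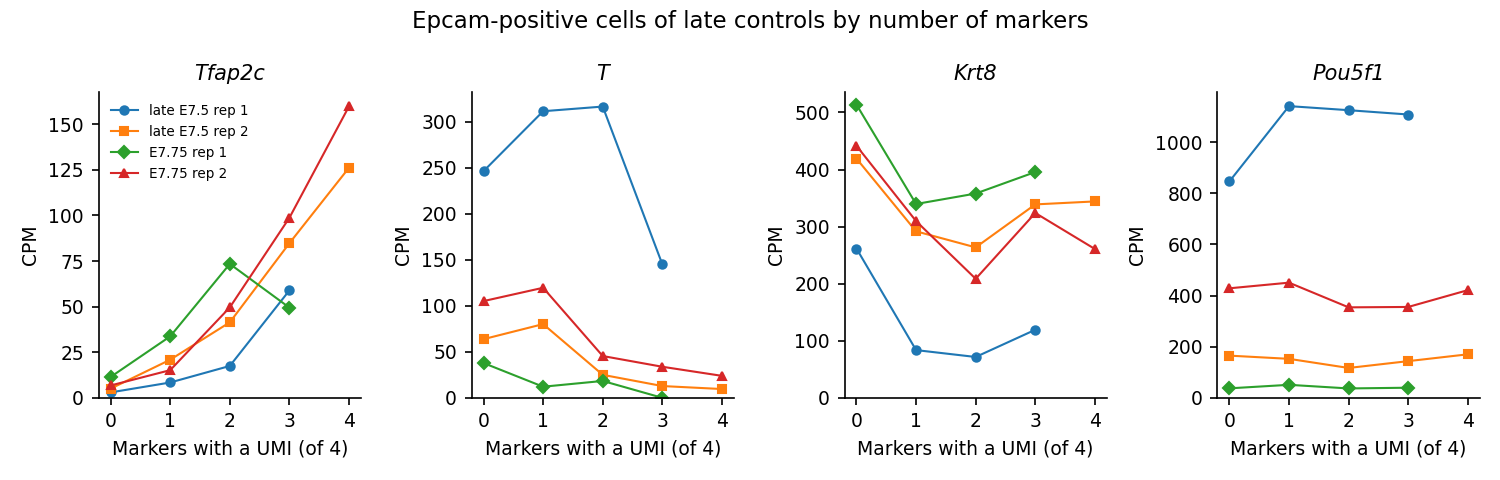
Level (y axes, CPM) of *Tfap2c*, *T*, *Krt8* and *Pou5f1* in *Epcam*-positive cells of the 4 late controls that lacked the 5 excluded genes, by how many of the 4 markers a cell held (x axes; points of at least 10 cells). Cells with 2 or more markers met the rule; *Tfap2c* at 4 markers reached 126 and 160 CPM, and *Pou5f1* separates the embryos rather than the marker counts.

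Against neural-gated cells of the same 4 late controls, 8 of 14 surface ectoderm genes and 9 of 17 Wnt genes were higher in surface ectoderm cells. The neural gate used *Six3* and *Hesx1*, which are anterior genes, so the directions of neural, anterior and posterior genes below are not independent of the gate and are given as a description. The summed levels did not all follow these counts. The 14 surface ectoderm genes summed to less than in neural-gated cells in late E7.5 replicate 1 (396 against 588 CPM) and to more in the other 3 embryos, and the 18 Wnt genes listed summed to more in late E7.5 replicate 1 and E7.75 replicate 1 and to less in the other 2. This comparison sets neighbouring derivatives of the epiblast side by side, and both classes were gated by UMIs of at least 2 of 4 genes. The gates were not symmetric, as cells that met both were counted as surface ectoderm only. Neural-gated cells thus held under 2 of the markers, whereas surface ectoderm cells could hold any of the neural genes. Median depths were 23719 to 25013 UMIs against 24678 to 25364 in the 3 deep embryos and 5622 against 5289 in E7.75 replicate 1. Of 12971 genes tested with embryo as a block, 725 were called at an adjusted p under 0.05 (5.59%), 359 higher (2.77%) and 366 lower (2.82%; quasi-likelihood test of edgeR, Benjamini-Hochberg adjusted). The number rests on single libraries, with 1497 called without late E7.5 replicate 1, 321 without late E7.5 replicate 2, 442 without E7.75 replicate 1 and 380 without E7.75 replicate 2. Values below are given for late E7.5 replicates 1 and 2 and then E7.75 replicates 1 and 2.

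Of 14 surface ectoderm genes outside the rule, all tested, 8 were higher, 0 lower and 6 not called, with a median log2 difference of 1.89 against -0.0046 over all genes. *Tfap2c* stood at 23.6, 63.8, 73.8 and 74.4 CPM in surface ectoderm cells and at 3.87, 2.26, 4.72 and 4.24 CPM in neural-gated cells. The 2 classes did not overlap, and *Tfap2c* was 3.94 ± 0.26 higher (log2, SE, n = 4 embryos). *Dlx3*, which acts in epidermal and placodal ectoderm, stood at 2.53, 12.7, 7.20 and 10.7 CPM against 0.215, 0.903, 0 and 0.444 CPM. In E7.75 replicate 1 this was 4 UMIs against 0 of 211940 UMIs. The limit of 3 UMIs for that count of 0 lies above 7.20 CPM, so a difference in *Dlx3* was not detectable in that embryo. *Dlx3* passed the filter on low counts through the surface ectoderm cells, so its call is given as a description. *Msx1* stood at 37.9, 264, 294 and 242 CPM against 8.50, 20.3, 9.44 and 18.7 CPM, and its paralogue *Msx2* at 21.2, 56.4, 37.8 and 58.5 CPM against 6.35, 5.30, 4.72 and 5.70 CPM. Both were higher in all 4 embryos, by 3.44 ± 0.22 and 2.97 ± 0.24 (log2, SE).

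*Grhl2*, a paralogue of *Grhl3* that controls epithelial junctions, was 2.26 ± 0.38 higher (log2, SE), *Dlx6* 2.21 ± 0.23 and *Gata3* 1.58 ± 0.22. *Trp63* was called as well and is counted among the 8, but neural-gated cells held it in 1 of 4 embryos only, at 0.0404 CPM. It passed the filter on low counts through the surface ectoderm cells, so its call is given as a description. Its fitted fold depends on the prior count and is not given. The 6 not called were *Gata2*, *Foxi2*, *Cdh1* and the keratin genes *Krt8*, *Krt18* and *Krt19*. *Krt8* stood at 75.4, 294, 373 and 241 CPM against 197, 105, 127 and 182 CPM, lower than in neural-gated cells in late E7.5 replicate 1 and higher in the other 3 embryos. Of 19 keratin and junction genes, 5 were higher (*Vim*, *Cdh3*, *Dsp*, *Cldn4* and *Esrp1*) and 0 lower. *Vim* encodes vimentin, a filament protein usually counted as mesenchymal.

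Among 20 BMP pathway genes, 5 were higher and 0 lower. These were the ligand genes *Bmp4* (1.80 ± 0.18) and *Bmp5* (1.78 ± 0.27), the target genes *Id1* (0.82 ± 0.09) and *Id3* (0.43 ± 0.09), and the inhibitor gene *Smad7* (1.19 ± 0.24; log2, SE). *Bmp4* stood at 3.47, 18.6, 30.6 and 9.57 CPM in surface ectoderm cells and at 1.29, 5.64, 4.72 and 2.46 CPM in neural-gated cells. The level was higher in each embryo than in its neural-gated cells. None of the 4 receptor genes (*Bmpr1a*, *Bmpr1b*, *Bmpr2* and *Acvr1*) was called.

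Among 17 Wnt pathway genes tested, 9 were higher and 2 lower. The ligand genes *Wnt3* (2.63 ± 0.28), *Wnt3a* (2.45 ± 0.35), *Wnt5b* (1.80 ± 0.17), *Wnt4* (1.70 ± 0.37) and *Wnt5a* (0.73 ± 0.16), the receptor gene *Fzd10* (1.32 ± 0.21) and the target genes *Sp5* (1.68 ± 0.12), *Axin2* (1.18 ± 0.11) and *Nkd1* (0.76 ± 0.16; log2, SE) made up the higher ones. *Wnt3* had 10, 4, 0 and 14 UMIs in neural-gated cells. It passed the filter on low counts through the surface ectoderm cells, so its call is given as a description. *Axin2*, a feedback inhibitor, stood at 32.2, 29.4, 32.4 and 29.6 CPM against 13.7, 10.6, 18.9 and 15.4 CPM. Its level was even across the 4 embryos, in contrast to the surface ectoderm genes. The 2 lower were the secreted inhibitor genes *Sfrp1* (-1.92 ± 0.16) and *Dkk1* (-1.03 ± 0.18). *Sfrp1* stood at 59.2, 10.6, 0 and 61.2 CPM in surface ectoderm cells and at 193, 61.8, 33.0 and 195 CPM in neural-gated cells.

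Of 14 FGF pathway genes, 5 were higher (*Fgf8*, *Etv4*, *Etv5*, *Spry4* and *Dusp6*) and 1 lower (*Fgfr2*). *Fgf8* stood at 63.4, 25.1, 16.2 and 38.6 CPM against 14.96, 12.3, 9.44 and 13.3 CPM. Of 8 anterior and posterior genes tested, the posterior genes *Cdx1*, *Cdx2*, *Cdx4* and *Hoxb2* were higher and the anterior gene *Otx2* lower. *Cdx2*, a caudal homeobox gene, stood at 181, 81.8, 88.2 and 158 CPM against 30.6, 23.6, 0 and 52.7 CPM. Against the other *Epcam*-positive cells described below none of these 4 genes was higher, with log2 differences of 0.17 for *Cdx1*, -0.14 for *Cdx2* and -0.03 for *Hoxb2*, not called, and *Cdx4* lower by -0.74. None of 6 retinoic acid genes was called.

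Markers of other cell types were read in the same way. Of the 5 neural genes that the neural gate had not used, 4 were lower (*Otx2*, *Sox2*, *Pax6* and *Rax*), as was the eye and forebrain gene *Fezf1*, at 0, 6.70, 1.80 and 1.82 CPM against 0.323, 67.3, 33.0 and 7.76 CPM. The neural plate border genes *Pax3* and *Pax7* were higher and *Zic5* lower among 6 tested, and the preplacodal genes *Six4* and *Eya2* were higher among 5. *Pax7* had 8, 4, 0 and 13 UMIs in neural-gated cells. It passed the filter on low counts through the surface ectoderm cells, so its call is given as a description. *T* was higher, by 1.88 ± 0.23 (log2, SE), at 302, 19.8, 14.4 and 40.1 CPM against 48.4, 6.996, 0 and 17.1 CPM. Of 7 epiblast genes 3 were lower (*Slc7a3*, *Dnmt3b* and *Pim2*), and of 5 definitive endoderm genes 4 (*Cer1*, *Foxa2*, *Foxa1* and *Trh*). *Cdx2*, which also stands in the trophoblast list, was higher. Of the extra-embryonic mesoderm and amnion genes 1 of 4 was higher (*Bmp4*), of the germ cell genes 1 of 3 (*Ifitm3*), and of the parietal endoderm genes *Lamb1* was higher and *Sparc* lower among 3. None of 5 visceral endoderm genes and none of 4 blood genes was called. Of 8 nascent and paraxial mesoderm genes 0 were called, with a median log2 difference of 1.09. Their sum in surface ectoderm cells was 151 CPM in late E7.5 replicate 1 and 10.8 to 54.6 CPM in the other late controls. Its part, and that of the anterior gate, in the Wnt, FGF and posterior values was not tested.

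By the rule for the largest differences, the higher genes were *Ovol1*, *3830417A13Rik*, *Gm11515*, *Trp63*, *A730090H04Rik*, *Gm694*, *Sostdc1* and *Dlx3*, and the lower ones *Nkx2-9*, *Gsc*, *2610034M16Rik*, *Kcna1*, *Fezf1*, *Foxd4*, *Rax* and *Epha7*. All 8 higher genes passed the filter on low counts through the surface ectoderm cells and are named as a description. All but *Dlx3* had at most 3 UMIs in neural-gated cells over the 4 embryos together, so the order of their folds depends on the prior count. *Ovol1*, a zinc-finger regulator of epidermal differentiation, stood at 0.400, 5.78, 7.20 and 2.96 CPM and was at 0 in neural-gated cells of 3 embryos and at 0.0404 CPM in E7.75 replicate 2. *Nkx2-9* stood at 0.400, 0.307, 0 and 1.51 CPM against 3.98, 68.5, 18.9 and 26.4 CPM. Most of these genes were low, and none of the 8 higher ones exceeded 12.7 CPM in surface ectoderm cells.

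The comparison with other *Epcam*-positive cells of the same late controls, which held 0 UMIs of the 4 markers and of the 5 excluded genes, took in the endoderm and the rest of the epithelium. These cells were shallower, with medians of 16942 to 19220 UMIs in the 3 deep embryos and 4473.5 in E7.75 replicate 1. Of 14404 genes tested, 1592 were called (11.1%), 541 higher (3.76%) and 1051 lower (7.3%; quasi-likelihood test of edgeR, Benjamini-Hochberg adjusted). Thinned to 2000 UMIs a cell, 548 were called, and 463 of them were among the 1592. Without late E7.5 replicate 1 the number was 2961, without late E7.5 replicate 2 it was 516 and without E7.75 replicate 2 it was 500.

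Of the 14 surface ectoderm genes outside the rule, 8 were higher, the same 8 as against neural-gated cells, and 3 were lower, the keratin genes *Krt8*, *Krt18* and *Krt19*. *Tfap2c* was 3.40 ± 0.13 higher (log2, SE), at 2.98, 5.03, 11.4 and 6.77 CPM in the other *Epcam*-positive cells. *Krt8* was lower in all 4 embryos, by -0.89 ± 0.16, with 262, 419, 514 and 442 CPM in the other cells. *Krt18*, its filament partner, stood at 139, 381, 468 and 358 CPM against 379, 623, 622 and 689 CPM, likewise lower in all 4 embryos (-0.88 ± 0.11). Against all other retained cells with 0 UMIs of the 5 excluded genes, epithelial or not, the value for *Krt18* turned to 0.016 (log2).

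Of 20 BMP pathway genes, 5 were higher (*Id4*, *Id1*, *Id3*, *Bmp4* and *Bmp5*) and *Chrd*, a BMP inhibitor of the node, was lower. *Id1* and *Id3* were 0.63 ± 0.10 and 0.49 ± 0.09 higher (log2, SE). The Wnt list went both ways, with 5 of 18 higher (*Wnt4*, *Wnt3*, *Wnt7b*, *Axin2* and *Fzd7*) and 4 lower (*Dkk1*, *Sfrp1*, *Wnt5a* and *Nkd1*). *Axin2* was 0.29 ± 0.08 higher here. *Wnt7b* had 12, 12, 1 and 12 UMIs in the other *Epcam*-positive cells. It passed the filter on low counts through the surface ectoderm cells, so its call is given as a description. Of 14 FGF genes 3 were lower (*Fgf3*, *Fgfr4* and *Etv4*) and 0 higher, and of 6 retinoic acid genes *Rarg* was higher and *Aldh1a2* and *Cyp26a1* lower. Of 19 keratin and junction genes, 5 were higher (*Esrp1*, *Cldn4*, *Tjp1*, *Cldn3* and *Cdh3*) and 5 lower (*Cdh2*, *Krt19*, *Krt7*, *Krt18* and *Krt8*).

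The cell type lists described the other *Epcam*-positive cells as much as the surface ectoderm. All 5 visceral endoderm genes, all 5 definitive endoderm genes, all 4 blood genes, 7 of 8 nascent and paraxial mesoderm genes, 3 of 4 node genes and 2 of 4 parietal endoderm genes were lower in surface ectoderm cells, and none of these lists had a higher gene. Of the border and crest genes, 4 of 8 tested were higher (*Pax7*, *Pax3*, *Foxd3* and *Sox10*), and of the preplacodal genes 2 of 5 (*Foxi3* and *Six4*). *Foxd3* and *Sox10* were called on few UMIs, with 2, 41, 1 and 3 and with 4, 15, 2 and 9 in surface ectoderm cells. *Pax3* stood at 1.60, 59.5, 28.8 and 18.5 CPM against 1.54, 11.3, 13.8 and 4.57 CPM, level between classes in late E7.5 replicate 1 and higher in the other 3 embryos. Of the trophoblast list, *Wnt7b* was higher. The ectoplacental gene *Tpbpa* was at 0 in surface ectoderm, neural-gated and other *Epcam*-positive cells alike, so it does not set the surface ectoderm cells apart. Of 4 extra-embryonic mesoderm and amnion genes tested, *Pitx1* and *Bmp4* were higher and *Foxf1* and *Isl1* lower. Of 7 epiblast genes *Nanog* was higher and *Slc7a3* lower, of 9 neural genes *Six3* was higher and *Sox1* lower, of 10 anterior and posterior genes *Six3* was higher and *Cdx4* lower, and of 3 germ cell genes tested *Ifitm3* and *Dppa3* were higher. Some genes stand in 2 lists, among them *Bmp4*, *Wnt7b*, *Chrd*, *Six3* and the keratin genes.

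By the rule for the largest differences, *A730090H04Rik*, *Trp63*, *Dlx6*, *AC123834.1*, *Ovol1*, *3830417A13Rik* and *Foxd3* were higher. In the other cells *A730090H04Rik* had 0, 1, 0 and 4 UMIs and *Trp63* 0, 5, 7 and 1. There *AC123834.1* had 1, 1, 3 and 2 UMIs and *3830417A13Rik* 1, 6, 1 and 1. *Foxd3* had 3, 1, 7 and 1 UMIs there and 2, 41, 1 and 3 in surface ectoderm cells, most of them in late E7.5 replicate 2. The folds of these low genes thus depend on the prior count, and they are named as a description. *Enpep*, *Lect2*, *Pyy*, *Pga5*, *Slc6a4*, *Wdr63*, *Cer1* and *Nkx2-9* were lower. *Enpep*, *Lect2*, *Pga5*, *Slc6a4* and *Wdr63* had at most 3 UMIs each in all surface ectoderm cells of the late controls, so their folds depend on the prior count as well. *Dlx6* stood at 8.14, 20.05, 18.0 and 16.0 CPM against 0.992, 0.701, 5.72 and 0.770 CPM. It lies beside *Dlx5*, which the rule asked for, so it is not an independent mark of these cells.

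**Figure D5:**
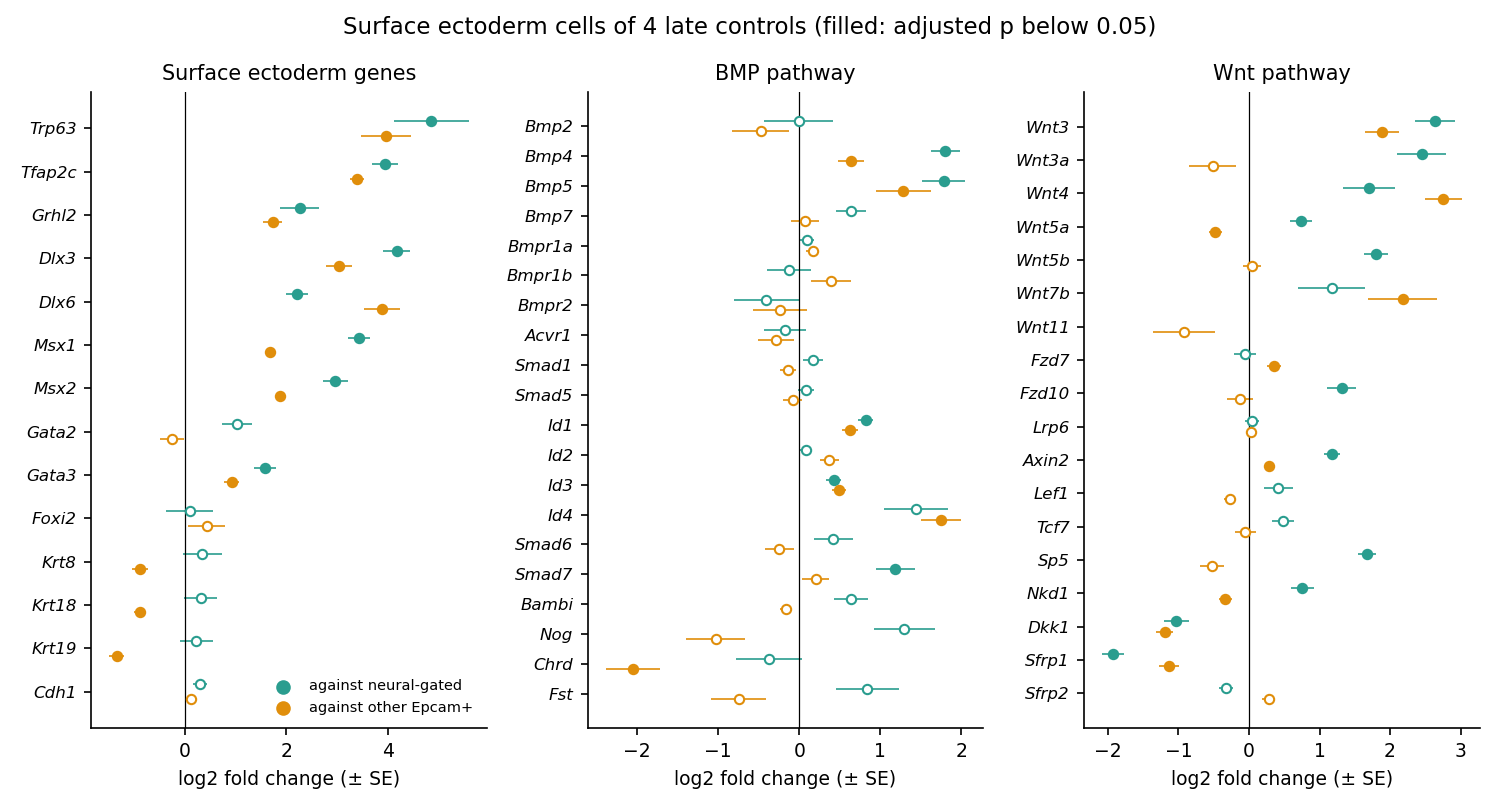
Log2 fold change with its SE (x axes) of surface ectoderm genes outside the rule, BMP pathway genes and Wnt pathway genes (rows) in surface ectoderm cells of 4 late controls, against neural-gated cells (green) and against other *Epcam*-positive cells (orange); filled points had an adjusted p under 0.05. *Tfap2c* lies at 3.94 and 3.40, and *Krt8*, *Krt18* and *Krt19* are lower against the other *Epcam*-positive cells only.

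In late E7.5 replicate 2 the surface ectoderm cells held 1006 CPM of the 4 blood genes, beside 944 CPM in its neural-gated cells and 2659 CPM in its other *Epcam*-positive cells. In the other late controls the sum was 0.667 to 117 CPM. Reporter UMIs were few. Ai14 was seen in 4.46%, 0% and 6.19% of the surface ectoderm cells of late E7.5 replicate 2 and E7.75 replicates 1 and 2, and in 10.1%, 1.76% and 21.5% of their presomitic-gated cells. In late E7.5 replicate 1, which carried no Ai14 allele, 3.65% of surface ectoderm cells and 2.42% of presomitic-gated cells held an Ai14 UMI. The Ai14 shares of surface ectoderm cells are within the range seen without the allele, up to 7.53% in neural-gated cells of that embryo, and are read as background. eGFP was seen in 1.11% to 6.06% of surface ectoderm cells and 0.988% to 13.8% of presomitic-gated cells.

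The 10 surface ectoderm cells of the late KO embryo held 61282 UMIs in all, so that 3 UMIs of a gene, the limit for a count of 0, correspond to 49.0 CPM. Of 12478 genes tested against the late controls, 6422 (51.5%) had 0 UMIs in these cells, and 0 passed in either direction (0% called, 0% higher and 0% lower; quasi-likelihood test of edgeR, Benjamini-Hochberg adjusted, smallest adjusted p = 0.583), with 846 at an unadjusted p under 0.05. DESeq2 called 1. Without E7.75 control replicate 1, the shallow control, 92 were called, 38 higher and 54 lower, so the count rests on that library. Fitted folds of genes at 0 depend on the prior count and are not given.

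UMIs of the KO cells were therefore set beside those of the control in the same experiment, without a test, as each is 1 embryo and their ages differ. *Tfap2c* had 3 UMIs (49.0 CPM, exact Poisson interval 10.1 to 143) against 73.8 CPM (53.0 to 100.2) in the control. The intervals overlapped, so that a difference in *Tfap2c* was not detectable at this depth. *Krt8* had 9 UMIs (147 CPM, 67.2 to 279) against 373 CPM (324 to 427), and *Krt18* 18 UMIs (294 CPM, 174 to 464) against 468 CPM (413 to 529). The interval of *Krt8* lay below that of this control, but its level and that of *Krt18* lay within the range of the 4 late controls, 75.4 to 373 CPM and 139 to 468 CPM.

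*Msx1* had 0 UMIs in the KO cells and 163 UMIs in the control cells (294 CPM, 250 to 342), at least 5.997-fold lower against the limit of 3 UMIs, a bound that leaves out the counting error of the control. In the other late controls it stood at 37.9, 264 and 242 CPM, the first of which lies under that limit. *Id1* and *Id3* stood at 522 CPM (357 to 737) and 930 CPM (704 to 1205) in the KO cells and at 254 CPM (214 to 299) and 672 CPM (605 to 744) in the control. The other late controls held *Id3* at 719, 988 and 1044 CPM, around the KO value, and *Id1* at 159, 370 and 358 CPM, the highest 2 of which lie inside the KO interval. *Bambi*, a BMP pseudoreceptor gene, had 10 UMIs (163 CPM, 78.3 to 300.1) against 41.4 CPM (26.3 to 62.2). Its level lay above all 4 late controls, which held 26.8 to 51.9 CPM.

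Neural and epiblast genes were also counted. *Six3*, an anterior neural gene, had 7 UMIs in the KO cells (114 CPM, 45.9 to 235) against 7.20 CPM (1.96 to 18.4) in the control, and *Otx2* 5 UMIs (81.6 CPM, 26.5 to 190) against 12.6 CPM (5.07 to 26.0). *Pou5f1* had 15 UMIs (245 CPM, 137 to 404) against 39.6 CPM (24.8 to 59.99), and *Dnmt3b* 27 UMIs (441 CPM, 290 to 641) against 90.1 CPM (66.8 to 119). The other *Epcam*-positive cells of the KO embryo and of this control differed likewise in *Pou5f1* (489 against 37.1 CPM), *Dnmt3b* (372 against 59.8) and *Otx2* (97.1 against 22.5). The differences in these genes are thus not particular to surface ectoderm cells. *Six3* stood at 18.2 against 12.5 CPM in those other cells. *Pou5f1* and *Dnmt3b* in the KO cells lay within the range of the late controls, 39.6 to 1128 CPM and 90.1 to 984 CPM. *Six3* and *Otx2* lay above it, at up to 35.2 and 60.6 CPM in the late controls, with the 60.6 CPM of *Otx2* inside the KO interval. Of the other 7 neural genes, *Sox2* (65.3 CPM) and *Hesx1* (81.6 CPM) lay within the late control range, 32.4 to 85.1 CPM and 5.403 to 95.8 CPM, *Sox1*, *Sox3* and *Pax6* had 0 UMIs, and *Lhx2* and *Rax* had 2 and 1 UMIs (32.6 and 16.3 CPM), above the late controls at up to 4.16 and 9.10 CPM, which lie inside the KO intervals. All 8 nascent and paraxial mesoderm genes, all 4 blood genes, all 4 node genes and all 5 definitive endoderm genes had 0 UMIs in the 10 KO cells, as had 51.5% of all genes tested. The mesoderm list holds *Mesp1*, which this embryo lacks by genotype, so the count of 0 of that gene is not a result. Of the 5 visceral endoderm genes 3 were seen, *Apoa1* with 3 UMIs and *Ttr* and *Apob* with 1 each.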

How the data were processed

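Whole embryos were profiled with the 10x Genomics 5′ v1 kit. The authors aligned reads to mm10 with eGFP and Ai14 added (Cell Ranger 3.0.2) and deposited UMI counts per gene and cell barcode, 1 matrix a library. Groups came from the sample labels, and experiments from the prefix of each library's title. Barcodes with under 10% mitochondrial UMIs, under 50000 UMIs and 200 to 7000 genes were kept, 93701 of 99474. Doublets were scored per library against simulated pairs (scanpy 1.11.5) and kept, and the top 0.8% per 1000 barcodes were left out in an alternative.

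Counts were summed per embryo and cell class with at least 10 cells, tested with edgeR 4.0.16 after filterByExpr and TMM scaling (quasi-likelihood, Benjamini-Hochberg, threshold 0.05), and with DESeq2 1.42.0 as an alternative. The late KO fit took every embryo with at least 10 surface ectoderm cells, with a mean per stage and genotype, and the single KO embryo was assumed to vary like the others. Fits between classes took the 4 late controls with embryo as a block. Embryos are the replicates. Tests between classes left out the genes of the rule and, against neural-gated cells, of the neural gate. Fits between embryos kept the marker genes, whose results are not reported. Scripts were tested on simulated data. Shares were compared by exact permutation over embryos, with Clopper-Pearson intervals. Besides the gene lists, up to 8 called genes per direction with the largest fold and 1 direction in every embryo are named. Results for 1 gene, and the trophoblast list's counts, are not reported here. The comparison of late with middle controls, the values without experiment 5 and the fits with experiment as a term were added after the data were seen. The cells and lists were chosen with earlier results of these data known. In a whole embryo, a share depends on what other cells were recovered.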

Additional observations from a re-analysis of the deposited data

Results flagged for a closer look

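In 7 of 40 groups tested, 1 embryo stood apart from the others by more than Dixon's 95% critical value, which chance alone exceeds in about 1 in 20 groups. The groups were the share of surface ectoderm cells in early and in late controls, and the levels in the 4 late controls of named genes called in these data. All 7 were levels of genes, given as CPM over summed surface ectoderm cells. *T* stood at 301.5 in late E7.5 replicate 1, against at most 40.1 in the other 3 late controls, and *Gm11515* at 0.667 in the same embryo, against at least 3.38. *Sostdc1*, a secreted BMP and Wnt inhibitor gene, stood at 5.403 and *Gsc* at 0 in E7.75 replicate 1, where 1 UMI is worth more CPM than in the deeper embryos. *Pga5* and *Wdr63* each stood at 0.0615 in late E7.5 replicate 2 and *Slc6a4* at 0.104 in E7.75 replicate 2, and these 3 genes were at 0 in the other late controls. With 3 embryos at 0 any value in the other one stands apart by this measure, so the 1 in 20 does not hold for these 3 genes, which rest on 1, 1 and 2 UMIs.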

How the results depend on the processing

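The counts of called genes moved with the depth and the embryos used. Against other *Epcam*-positive cells, 1592 genes became 2416 with no filter on low counts, 548 after thinning to 2000 UMIs and 500 to 2961 with 1 late control left out. The calls without late E7.5 replicate 2 were 114 higher and 402 lower, and without E7.75 replicate 2 they were 116 higher and 384 lower. Against neural-gated cells, 725 became 1494 with no filter, 1542 with at least 3 markers, 338 after thinning, 1137 with all embryos and 321 to 1497 with 1 late control left out, where the split was 193 higher and 128 lower without late E7.5 replicate 2 and 226 higher and 154 lower without E7.75 replicate 2. For the late KO embryo 0 became 1 with DESeq2 and 0 to 92 with 1 embryo left out. The KO difference in share ranged from -2.4891 to -0.90076 percentage points and the late minus early difference from 2.4302 to 4.157 with 1 embryo left out. Of the values for named called genes, 7 of 248 against neural-gated cells lost their call with the same direction. Against other *Epcam*-positive cells 13 of 261 did so. *Krt18* turned to 0.01593 (log2) against all other retained cells with 0 UMIs of the excluded genes. With experiment as a term, added after the data were seen, 0 genes were called in the late KO and the late against middle comparisons (8 embryos, 2 residual degrees of freedom; 895 and 361 at an unadjusted p under 0.05, edgeR). Causes were not tested. The late KO comparison could not be run with at least 3 markers, with at least 20 cells or without the KO embryo. By replicate number, no paired analysis was possible because these numbers count embryos within an age, and control and KO groups share fewer than 2 of them, and matching by experiment is the term above. In the late KO cells 3 UMIs equal 49.0 CPM.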
